A study of Mus musculus with 6 samples.

Results

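The genes described here are the protein-coding genes of mouse chromosome 11 whose deposited start lies within 5 Mb of Mir21a, which encodes the miR-21 precursor, on the mm10 build. The chemokine genes with symbols beginning Ccl were left out, which removed 5 genes. The rule uses position, gene type and symbol and no measured value, but it was chosen with earlier results of these data known. The rule found 82 of the 20199 genes in the table, and 69 of them passed the filter on low counts and were tested. Libraries came from aortic smooth muscle cells of C57B6 mice aged 12 weeks. All 6 samples carried mTmG, a fluorescent reporter of Cre activity, and Myh11ERT2, an inducible driver under the smooth muscle myosin heavy chain gene, so the reporter and driver were shared by controls. The 3 control samples were otherwise wild type, and the 3 others carried miR-21fl/fl alleles, which the labels' group field calls miR21 -/-. These are called knockout below. The sources used here do not state the inducer, the way cells were isolated, or whether samples came from separate animals. Myh11 is a smooth muscle gene, so the driver is meant to act in those cells, but whether it acted here was not checked. The p-values measure the spread between these samples, which may be technical.

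MicroRNAs are short RNAs that guide Argonaute proteins to messenger RNAs through base pairing of the seed, bases 2 to 8 of the mature strand. miR-21 is abundant in vascular smooth muscle and is known for its part in injury responses of the vessel wall. Its hairpin lies inside the span of Vmp1, and genes on both sides are inherited together with any allele made there. On mm10, Mir21a occupies chromosome 11 from 86584067 to 86584158 on the minus strand. Vmp1 runs on the same strand from 86583865 to 86683836, so the hairpin sits near the 3′ end of Vmp1. The mature strands of the targeted locus are shown with the seed in capitals, from RefSeq on GRCm38.p6.
mmu-miR-21a-5p: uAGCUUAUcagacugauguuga
mmu-miR-21a-3p: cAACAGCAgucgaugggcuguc

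Library totals ran from 17123748 to 28610649 counts. The smooth muscle markers Myh11, Acta2, Tagln, Cnn1, Smtn, Lmod1, Des and Myocd were all detected. They summed to 42246 to 48608 CPM (counts scaled to library size with TMM factors) over the wild-type libraries and 43649 to 44731 over the knockout libraries. By gene, 7 of the 8 markers had a lower fitted level in knockout and 1, Myh11, a higher one (median log2 fold change −0.11). Cnn1, at −0.32, was the 1 marker (12.5%) whose groups did not overlap, against 14.5% of all genes tested. In edgeR it was also the 1 marker with an unadjusted p under 0.05 (12.5%, against 6.29%), and 0 passed after adjustment. Of 6 granulocyte markers, only S100a8 was in the deposited table, at 0 to 0.102 CPM. Macrophage markers summed to 4.87 to 9.70 CPM for wild type against 2.39 to 9.34 for knockout. Endothelial markers summed to 36.6 to 38.3 CPM for wild type and 35.3 to 47.1 for knockout. Most of that was Pecam1, at 29.3 to 42.0 CPM over all libraries. Vwf was at 2.79 to 5.43 CPM and Tek at 0 to 1.17 CPM, and Cdh5 and Kdr were too low to test. Fabp4, the 1 adipocyte marker in that table, was at 53.5 to 74.5 CPM for wild type and 38.9 to 68.8 for knockout. Adventitial fibroblast markers summed to 121 to 124 CPM over wild-type libraries and ranged from 71.9 to 162 over knockout libraries, and their part in the results was not tested. In bulk RNA, fewer cells of a type and less RNA per cell cannot be told apart. Wild-type replicate 1 stood apart on the first principal component, which held 40.6% of the variance. It was at −58.1 there, against 1.53 to 27.3 elsewhere. Summed over the 82 members it held 2121 CPM, against 2378 to 2646 CPM in the other 5 libraries. Without Cltc, the most abundant member, that sum was 1816 CPM against 1814 to 1885 CPM. The deletion was not checked, because Mir21a was not analysed here and libraries of long RNA do not measure the mature strand.

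None of the 69 tested members passed the test over all genes. The test was edgeR's quasi-likelihood test, 2-sided, with Benjamini-Hochberg adjustment over 15185 genes and a threshold of 0.05. It called 0 of 15185 genes (0%) and 0 of 69 members. At an unadjusted p under 0.05 it listed 8 members (11.6%), against 955 of all genes tested (6.29%), 6.68% of coding genes and 7.38% of the other coding genes of chromosome 11. Of the 8, 4 were higher (5.80%) and 4 lower (5.80%) in knockout, where all genes gave 2.85% higher and 3.44% lower. In limma voom the members called were 0 and those at an unadjusted p under 0.05 were 8, against 990 of all genes (6.52%). DESeq2 called 1 member, Scpep1, of 74 with an adjusted p (1.35%), against 66 of 16673 genes (0.396%).

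Members lay on both sides of 0. Of 69, 39 had the higher fitted level in knockout and 30 (43.5%) the lower one, where 50.1% of all genes were lower. Their median log2 fold change was 0.03, against −0.00078 over all genes tested and −0.02 over the 948 other coding genes of chromosome 11 that were tested. The median size of the log2 fold change was 0.17, against 0.16 over all 12416 coding genes tested. The groups did not overlap for 13 members (18.8%), where all genes tested gave 14.5%, all coding genes 15.3% and the other coding genes of chromosome 11 gave 17.5%. Of the 13, 8 were higher (11.6%) and 5 lower (7.25%), against 6.95% and 7.57% of all genes. A log2 fold change larger than 0.5 in either direction was fitted for 7 members (10.1%), against 9.62% of all genes, 7.68% of all coding genes and 7.17% of the other coding genes of chromosome 11. The precision allowed only coarse statements on single genes, since the 95% interval of the log2 fold change lay within 0.5 of 0 for 27 members and within 1 of 0 for 61.

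**Figure D1:**
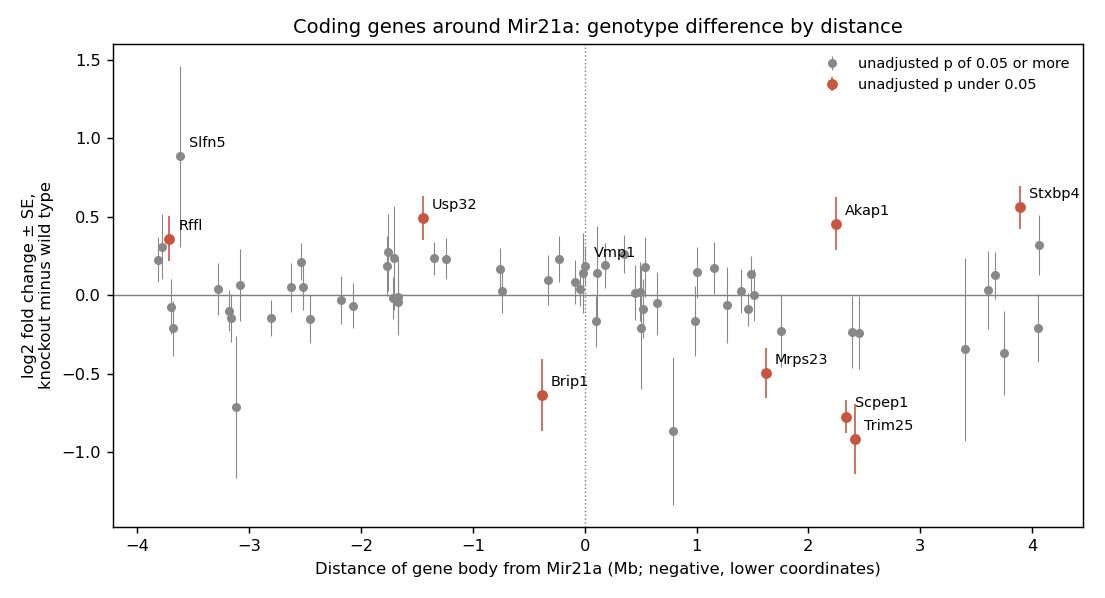
Log2 fold change ± SE of each of the 69 tested members (points) against the distance of its gene body from Mir21a in Mb, with negative values at lower coordinates. The 8 members with an unadjusted p under 0.05 are red, and 4 of them lie above 0 and 4 below.

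The 13 members that overlap Mir21a or lie within 0.5 Mb of it were all tested, and they carried small differences. Fitted means were higher in knockout for 11 and lower for 2, with a median log2 fold change of 0.10 and a median size of 0.14. Without wild-type replicate 1 they split into 7 higher and 6 lower with a median of 0.0055, and without knockout replicate 1 into 8 higher and 5 lower with a median of 0.05. The median was 0.23 without wild-type replicate 3. Of these, 1 had an unadjusted p under 0.05 and 2 did not overlap between the groups. Vmp1 encodes a membrane protein of the endoplasmic reticulum that acts in autophagosome formation. It was at 52.7, 44.0 and 47.1 CPM in wild-type replicates 1 to 3 and at 52.2, 59.5 and 51.7 CPM in knockout replicates 1 to 3. Wild-type replicate 1 lay between knockout values and the groups overlapped, with a log2 fold change of 0.19 ± 0.12 SE and a 95% interval from −0.09 to 0.46 (edgeR adjusted p = 0.778). Without that library the value was 0.26, and the unadjusted p in edgeR was under 0.05. The edgeR adjusted p was then 0.596, over a range of 0.596 to 0.996 across all alternatives. The processed pseudogene Gm11478 lies on the same strand within Vmp1, and reads of the miR-21 primary transcript that fall in Vmp1 could not be told from its messenger RNA here.

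Other genes of autophagosome formation lay on both sides of 0. Of 31 such genes outside the region, all tested, 18 were higher and 13 lower in fitted level, and the median log2 fold change was 0.06. In edgeR 0 passed over all genes and 3 (9.68%) had an unadjusted p under 0.05, against 6.29% of all genes. These 3 were Ulk1 (log2 fold change 0.34), Atg16l1 (0.33) and Map1lc3a (−0.35). For 7 of the 31 (22.6%) the groups did not overlap, against 14.5% of all genes. Their sums ran from 2759 to 2837 CPM over the wild-type libraries and from 2704 to 2818 over the knockout libraries, so the sums overlapped. Sqstm1 alone was at 537 to 686 CPM, so the sums say little about genes of lower level.

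On the side of lower coordinates, the genes next to Mir21a were Tubd1, Rps6kb1 and Rnft1. Rps6kb1, the gene of S6 kinase 1, which acts below mTORC1 in growth control, was at 35.7, 36.4 and 34.3 CPM in wild type and 35.1, 36.6 and 37.5 CPM in knockout. The log2 fold change of 0.04 had a 95% interval from −0.21 to 0.28, and the groups overlapped. Tubd1, which encodes delta-tubulin of the centriole, was at 3.69, 3.66 and 4.55 CPM and at 5.81, 3.28 and 4.16 CPM (log2 fold change 0.14). The knockout values of Tubd1 spanned those of wild type. Rnft1, a ring finger gene of the endoplasmic reticulum, was at 76.8, 102 and 89.3 CPM in wild type and 107, 87.6 and 90.1 CPM in knockout (0.08). Further out lay Med13, a subunit gene of the Mediator kinase module, at 0.23, and Ints2, of the Integrator complex, at 0.10. Both overlapped between the groups, and both share their span with the antisense RNA Brip1os, whose reads could not be told apart without strand.

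Brip1, at 0.383 Mb, was the member of this stretch with the smallest p. It encodes a DNA helicase that binds BRCA1 and acts in repair of DNA crosslinks. Its levels were 9.27, 7.02 and 9.17 CPM in wild type and 6.89, 4.04 and 5.52 CPM in knockout. All 3 knockout libraries lay below all 3 wild-type libraries, though knockout replicate 1 was close to wild-type replicate 2. The log2 fold change was −0.64 ± 0.23 SE (unadjusted p = 0.0206 and adjusted p = 0.775 in edgeR). The unadjusted p was not under 0.05 without wild-type replicate 3, or without knockout replicate 2 or 3.

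On the other side, Ptrh2 and Cltc follow Vmp1. Ptrh2 encodes a mitochondrial peptidyl-tRNA hydrolase and was at 6.42, 7.17 and 7.25 CPM in wild type and 6.03, 5.97 and 6.55 CPM in knockout (a log2 difference of −0.17 ± 0.16 SE). Cltc, the clathrin heavy chain gene, was the most abundant member. It was at 305, 686 and 762 CPM in wild type and at 769, 602 and 564 CPM in knockout. Wild-type replicate 1 was the lowest of the 6, and the other 2 wild-type libraries lay among the knockout values. The log2 fold change went from 0.14 to −0.17 without that library and to −0.0038 without knockout replicate 1. Ypel2 was the second of the nearest genes whose groups did not overlap, at 28.2, 30.5 and 28.8 CPM in wild type and 38.1, 34.7 and 32.3 CPM in knockout. The fitted log2 fold change was 0.26 ± 0.12 SE (edgeR adjusted p = 0.778). Dhx40, a helicase gene, was at 0.19 (0.08 without wild-type replicate 1), Gdpd1, a lysophospholipid-hydrolysing enzyme gene, at 0.02, and Smg8, a factor of nonsense-mediated decay, at 0.02, all with overlapping groups.

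**Figure D2:**
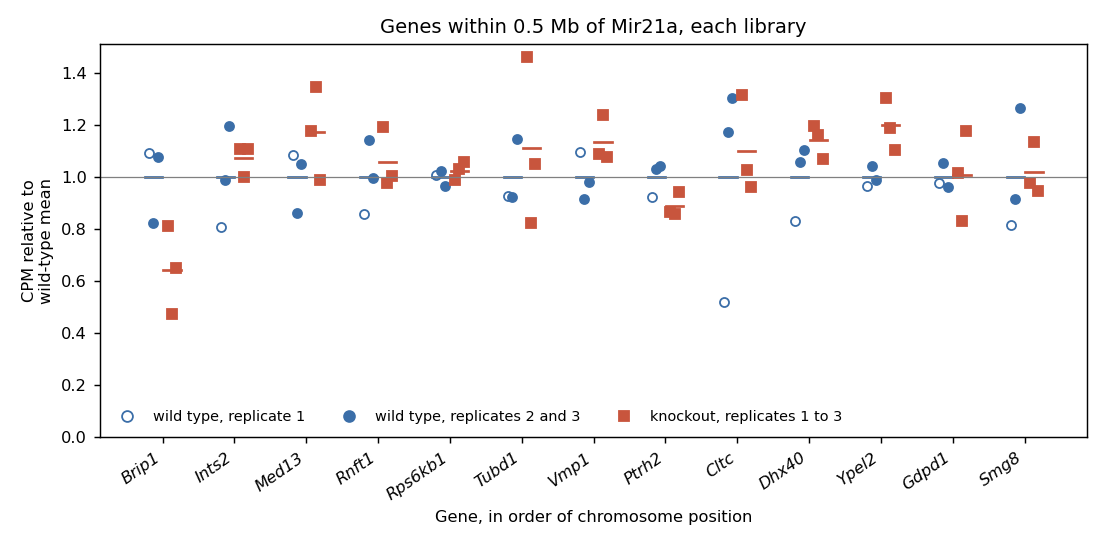
CPM of each library divided by the wild-type mean of the gene, for the 13 members within 0.5 Mb of Mir21a in order of position. Short bars are group means, the open circle is wild-type replicate 1, and the groups lie apart only for Brip1 and Ypel2.

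Vmp1 and Ptrh2 start head to head. The 148 bases between their 5′ ends, chr11:86683837-86683984 on mm10, were read from RefSeq's promoter table (GRCm38.p6, plus strand). Stxbp4 and Cox11, at the far end of the window, are arranged likewise with 88 bases between them, chr11:90638085-90638172. These stretches are shown because each lies between the starts of a pair of genes whose fitted differences had opposite signs, with CG dinucleotides in capitals.
Vmp1-Ptrh2: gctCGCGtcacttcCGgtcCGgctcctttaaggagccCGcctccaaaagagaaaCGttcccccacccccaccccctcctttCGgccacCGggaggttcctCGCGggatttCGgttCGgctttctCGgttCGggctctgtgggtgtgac
Stxbp4-Cox11: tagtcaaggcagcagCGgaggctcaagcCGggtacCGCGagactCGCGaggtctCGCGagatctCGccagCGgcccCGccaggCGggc
The first holds 14 CG dinucleotides and 64.2% G and C, and the second 12 and 71.6%. The median of the table's 32851 promoters is 52.7%, but it covers each promoter's whole sequence, so unlike stretches are compared. Vmp1 was at 0.19 and Ptrh2 at −0.17, and Stxbp4 at 0.56 and Cox11 at −0.21. Among 7 head-to-head pairs of members with starts within 1 kb, both genes were tested in 6, and the signs matched in 3 and differed in 3. The difference within a pair was not tested.

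From 0.5 to 1 Mb, 8 members were tested, 3 of them higher and 5 lower in knockout, and 0 had an unadjusted p under 0.05. Their median log2 fold change was −0.07 and the median size 0.16. Bcas3 (0.16) and Trim37 (0.18), the gene of a ubiquitin ligase that limits centriole assembly, were among the 3 higher ones. Bcas3 was at 0.06 without wild-type replicate 1. Trim37 was at 0.0017 without that library and at 0.41 without wild-type replicate 3, where its unadjusted p in edgeR was under 0.05.

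Between 1 and 2 Mb, 18 of 21 members were tested and 2 had an unadjusted p under 0.05, namely Usp32 and Mrps23. Usp32, the gene of a deubiquitinating enzyme, lies 1.44 Mb to the lower side. It was at 12.8, 15.2 and 16.2 CPM in wild type and 22.4, 20.8 and 19.2 CPM in knockout. The lowest knockout library was above the highest wild-type library (log2 fold change 0.49 ± 0.14 SE, unadjusted p = 0.00688 and adjusted p = 0.642 in edgeR). Its neighbours Appbp2, which encodes a substrate receptor of a cullin ubiquitin ligase, and Ppm1d, a phosphatase gene of the p53 response, also had groups that did not overlap. Appbp2 averaged 59.2 ± 2.78 CPM over wild type and 69.7 ± 4.02 CPM over knockout (mean ± SD, n = 3 each; log2 fold change 0.23). Ppm1d was at 14.6 ± 0.951 and 17.2 ± 1.05 CPM (0.23). Neither had an unadjusted p under 0.05.

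Mrps23, a gene of the small subunit of the mitochondrial ribosome, lies 1.62 Mb to the higher side. Its levels were 22.4, 18.2 and 15.998 CPM in wild type and 13.5, 12.3 and 14.2 CPM in knockout. Every knockout library was lower, and wild-type replicate 1 was the highest of the 6. The log2 fold change was −0.49 ± 0.16 SE (unadjusted p = 0.0121 and adjusted p = 0.719 in edgeR). Dhrs11, a dehydrogenase gene (0.27, or 0.06 without wild-type replicate 3), Mtmr4, which encodes a phosphatase of phosphatidylinositol 3-phosphate (0.14), and the zinc finger factor gene Vezf1 (0.14) overlapped between the groups. Mtmr4 was at −0.0075 without wild-type replicate 1.

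Tspoap1, at 1.18 Mb, was too low for the filter and is named here after its values were seen. It encodes a scaffold protein that binds RIM proteins at synapses. It had 2, 0 and 2 counts in wild type and 24, 20 and 10 counts in knockout. All 3 knockout libraries lay above wild type. DESeq2, run on every gene with a count, gave a log2 fold change of 3.82 ± 1.04 SE and an adjusted p of 0.0582, which missed the threshold.

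**Figure D3:**
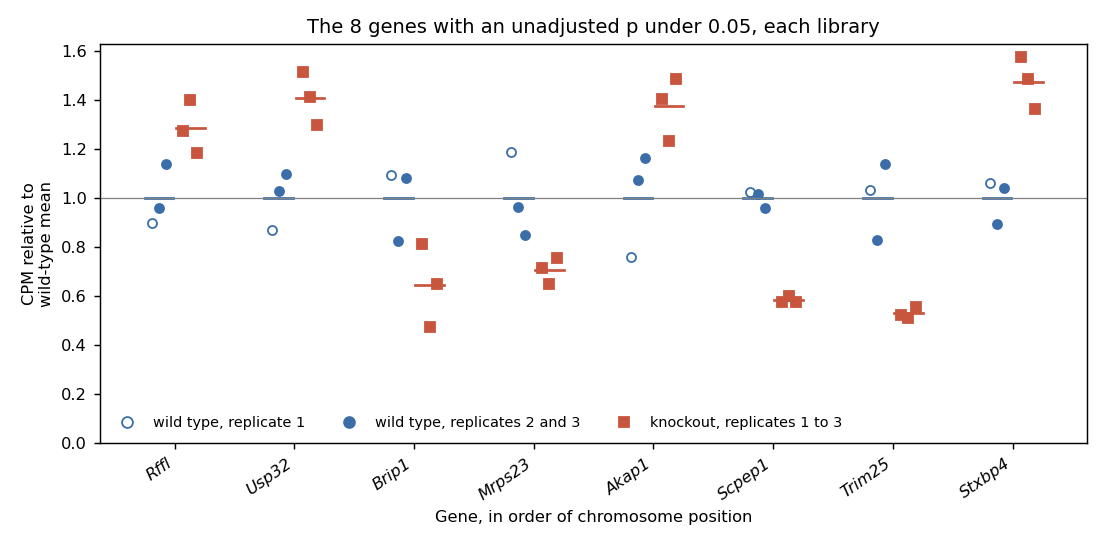
CPM of each library divided by the wild-type mean of the gene, for the 8 members with an unadjusted p under 0.05, in order of position. Short bars are group means; for Scpep1 the 3 knockout libraries, at 129.8 to 135 CPM, lie close together and below the 3 wild-type libraries, at 216 to 230.4 CPM.

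The stretch around Scpep1, 2.34 Mb to the higher side of Mir21a, held 3 of the 8 genes. Of 6 tested members within 0.25 Mb of Scpep1, itself included, 3 had an unadjusted p under 0.05, and 4 of the 50 tested members outside that stretch and beyond 0.5 Mb from Mir21a did. Over all genes the share was 6.29%. The stretch was centred on Scpep1 with its value known and counts Scpep1 itself, so the contrast is a description and was not tested. Scpep1 encodes a retinoid-inducible serine carboxypeptidase, a gene known from vascular smooth muscle. It was at 230.4, 229 and 216 CPM in wild type and 129.8, 135 and 129.99 CPM in knockout. The gap between the groups was wider than the spread within either, and the fitted level in knockout was 0.585 of that in wild type. The log2 fold change was −0.77 ± 0.11 SE with a 95% interval from −1.01 to −0.53. Its p ranked 3 among 15185 genes (edgeR adjusted p = 0.219). In DESeq2 Scpep1 fell with an adjusted p of 1.71e-07. Over the alternatives the adjusted p ran from 1.71e-07 to 0.910, and the edgeR call was reached without wild-type replicate 1 (adjusted p = 0.0135). The antisense RNA Scpep1os overlaps it but held 10 counts in all 6 libraries, against 23489 for Scpep1.

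Of those 6 genes, 5 had a lower level in knockout and Akap1 a higher one. Akap1, which anchors protein kinase A at the outer mitochondrial membrane, was at 35.2, 49.8 and 53.9 CPM in wild type and 64.9, 57.1 and 68.7 CPM in knockout. All knockout libraries were higher, and wild-type replicate 1 was the lowest. The log2 fold change was 0.46 ± 0.17 SE (unadjusted p = 0.0230 and adjusted p = 0.775 in edgeR), and it was 0.29 without that library. Without knockout replicate 1 or 3 its unadjusted p was not under 0.05. Trim25, the gene of a ubiquitin ligase of the RIG-I antiviral pathway, was at 4.82, 3.86 and 5.32 CPM in wild type and 2.45, 2.38 and 2.598 CPM in knockout. No knockout library reached the lowest wild-type value, and the log2 fold change was −0.91 ± 0.22 SE (unadjusted p = 0.00261 and adjusted p = 0.525 in edgeR).

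Between and beside these lay genes with overlapping groups. Coil, the coilin gene of Cajal bodies, was at −0.23, Dgke, a diacylglycerol kinase gene, at −0.24, and Msi2, an RNA-binding protein gene, at −0.23. For Msi2 wild-type replicate 1 was at 60.1 CPM, against 36.3 and 31.1 CPM in the other wild-type libraries, and the value was 0.11 without it. Dgke turned to 0.06 without wild-type replicate 3. Exact permutation tests of log2 CPM gave p = 0.1 for Scpep1, Akap1 and Trim25 alike, the smallest p that 3 against 3 libraries can give (2-sided).

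Farther from the locus, between 3 and 4 Mb, 2 more members had an unadjusted p under 0.05. Stxbp4, which encodes a syntaxin-binding protein of vesicle traffic, was at 12.8, 10.8 and 12.6 CPM in wild type and 19.0, 17.96 and 16.5 CPM in knockout. Its groups lay apart, with a log2 fold change of 0.56 ± 0.14 SE (unadjusted p = 0.00274 and adjusted p = 0.530 in edgeR). The processed pseudogene Gm11512 lies within Stxbp4 on the same strand and had 1086 counts to the 1985 of Stxbp4, so their reads may not be fully separable, and Stxbp4 is uncertain for that reason. Rffl, a ring finger ubiquitin ligase gene, was at 13.9, 14.8 and 17.5 CPM in wild type and 19.6, 21.6 and 18.2 CPM in knockout (0.36 ± 0.14 SE, unadjusted p = 0.0330 and adjusted p = 0.778 in edgeR). Its unadjusted p in edgeR was not under 0.05 without wild-type replicate 1 or 2, or without knockout replicate 1 or 2. Rffl overlaps Lig3 on the opposite strand by 1826 bases.

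Other members beyond 2 Mb had weaker values. Synrg, whose product binds the AP-1 adaptor, averaged 35.3 ± 1.98 CPM over wild type and 40.9 ± 2.83 CPM over knockout (log2 fold change 0.21), and Heatr6 at 24.1 ± 0.819 and 21.8 ± 0.712 CPM (−0.14). For each of these the groups did not overlap. Hlf, a clock-controlled transcription factor gene, was at −0.37 (−0.01 without wild-type replicate 3) and Nle1, a ribosome assembly gene, at −0.21 (−0.08 without knockout replicate 1), with overlapping groups. Slfn5 was the 1 Schlafen gene of 5 that could be tested, from 0.119 to 0.814 CPM over wild type and from 0.718 to 1.02 CPM over knockout (0.88 ± 0.58 SE, or 0.49 without wild-type replicate 1 and 1.59 without wild-type replicate 2). Schlafen genes are interferon-inducible and similar in sequence, so their counts are uncertain.

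By distance from Mir21a, the median size of the log2 fold change was 0.14 within 0.5 Mb, 0.16 from 0.5 to 1 Mb, 0.16 from 1 to 2 Mb, 0.18 from 2 to 3 Mb and 0.22 from 3 to 4 Mb. Spearman's rho of size on distance was 0.23 across the 69 genes, which share the same 6 libraries. It was 0.17 for the 35 members on the lower side and 0.39 for the 33 on the higher side. Toward the limits of the window, Tom1l1, the last member, starts 4.06 Mb from Mir21a and was at 0.32. Utp18, the next coding gene of the deposited table, starts 7.28 Mb away and was at 0.13. On the other limit the first member, Tmem132e, and Asic2 outside were too low to test.

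**Figure D4:**
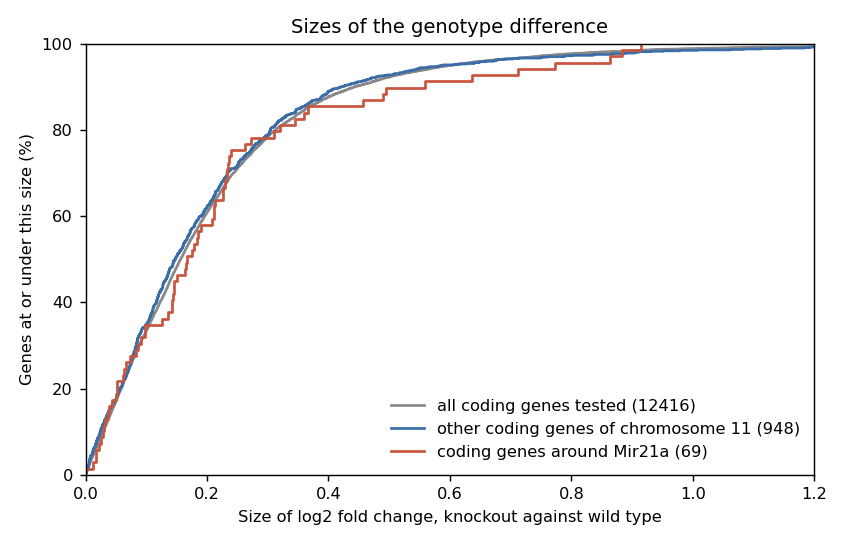
Share of genes (percent, vertical) whose log2 fold change between genotypes is at or under a given size (horizontal), for the 69 members, the 948 other coding genes of chromosome 11 and all 12416 coding genes tested. The curves run close together up to about the median, at 0.17 for the members and 0.16 for all coding genes.

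Grouped by role, 0 genes of any list had an edgeR adjusted p under 0.05. At an unadjusted p under 0.05 the lists held few genes each, beside 6.29% of all genes. The ubiquitin system genes of the region (Usp32, Appbp2, Rnft1, Rffl and Trim25 tested) were higher in 4 cases and lower in 1, with 3 at that p. The 5 DNA repair genes had 2 higher and 3 lower (median −0.07), with 1 at that p, Brip1. The list of vesicle coat and adaptor genes, which also holds the syntaxin-binding protein gene Stxbp4, had 4 higher and 1 lower of 5 (median 0.21). It had 1 at that p, Stxbp4 itself, and Cltc, counted as higher, turned to −0.17 without wild-type replicate 1. The list of mitochondrial genes, which also holds Pigw, an enzyme gene of GPI-anchor synthesis, had 2 higher and 4 lower of 6 (median −0.09), with 2 at that p, Akap1 and Mrps23. Metabolic enzyme genes had 2 higher and 3 lower (median −0.03), with 1 at that p, Scpep1. The 9 tested transcription and chromatin genes (median 0.06) and the 8 RNA processing genes (median −0.03) had 0 at that p. The list of kinase and phosphatase signalling, which also holds Bcas3 and the small GTPase gene Rasl10b, had 3 higher and 3 lower, and that of centrosome and mitosis 2 higher and 3 lower, each with 0 at that p. The 4 tested genes of autophagy and membranes had fitted levels above wild type (median 0.14) and 0 at that p. Of these, Gdpd1 turned to −0.11 without knockout replicate 3 and Mtmr4 to −0.0075 without wild-type replicate 1. These role lists were drawn up with earlier results of these data known.

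Levels between genes were compared per length, as CPM per kb of the longest coding transcript in GENCODE vM1, for the 74 members with one. Cltc was first at 94.3 CPM per kb and Scpep1 was second at 85.1, followed by Mmd at 38.6, Cuedc1 at 34.8 and Vezf1 at 25.1. Vmp1 ranked 9 at 18.4 CPM per kb. In wild type Scpep1 was at 107 CPM per kb and Cltc at 89.6, and in knockout Scpep1 was at 62.8 and Cltc at 98.9. The wild-type spread of Cltc, 584 ± 245 CPM (SD, n = 3), covers that difference in order.

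The 3′ ends of the members were searched for the complement of the miR-21a-5p seed, ATAAGCT. It occurred in the longest annotated 3′ untranslated region of 9 of 63 tested members searched (14.3%), against 840 of 11009 tested coding genes (7.63%). The members' regions were longer, with a median of 1951 bases against 1227. The same site followed by A occurred in 0 members, and in 2.16% of all coding genes searched. Among the members, the median log2 fold change was 0.03 with the site and 0.04 without, and over all coding genes searched it was 0.09 with the site and −0.01 without. Genes with and without the site were not matched for the length of this region, and neither contrast was tested. The sites of 2 of the 8 genes above and of 2 others within 0.5 Mb of Mir21a are shown, in capitals within their flanks, from GENCODE vM1 transcripts, because they match the seed of the strand printed at the opening. That of Ptrh2 starts at base 1 of its 3′ untranslated region, so no flank before it is shown.
Brip1: ctcactgctgaATAAGCTcaccccttccg
Rffl: gttctaaactaATAAGCTgtaaaggaatt
Ints2: aagttaaggttATAAGCTttgtcacaatg
Ptrh2: ATAAGCTtttgcttgatg
Brip1 was at −0.64, Rffl at 0.36, Ints2 at 0.10 and Ptrh2 at −0.17 on the log2 fold change scale, so the 4 did not share a direction. A match describes letters only and is not a site.

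**Figure D5:**
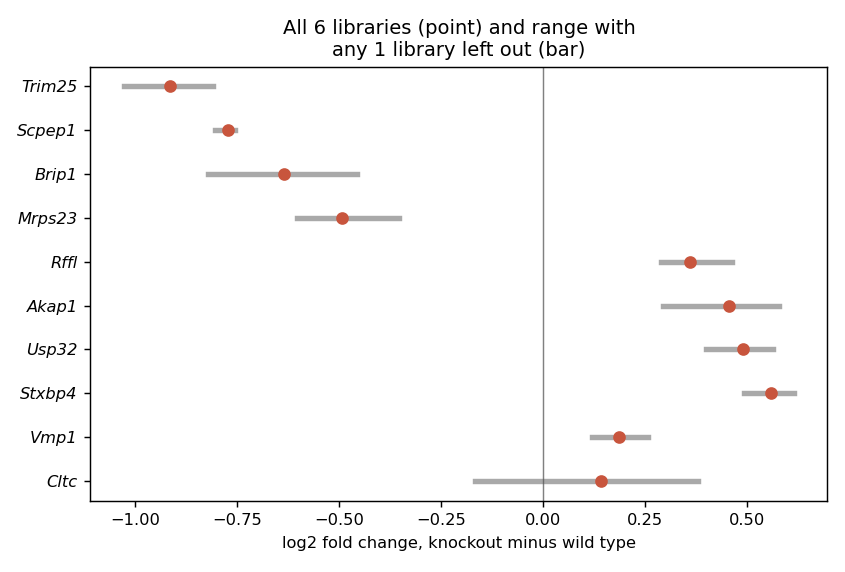
Log2 fold change (horizontal) of the 8 members with an unadjusted p under 0.05, of Vmp1 and of Cltc, with all 6 libraries (point) and the range when any 1 library is left out (bar). Scpep1 has the shortest bar of the 8, from −0.80 to −0.76, and of the 10 genes only Cltc crosses 0.

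Of the 69 tested members, 24 overlap another gene of the table, and the sources used here do not state whether counting used strand. The 13 members that were not tested had between 6 and 82 counts summed over the 6 libraries, with at most 35 in any 1 library. They included 4 Schlafen genes. One member carries a date in place of its symbol in the deposited table and is not named. The window also held 26 noncoding features, of which 11 were tested and 3 had an unadjusted p under 0.05, where the share over all genes was 6.29%. The lincRNA C030037D09Rik, between Msi2 and Akap1, had the lowest p of these, with 1.56 ± 0.348 CPM for wild type and 3.16 ± 0.432 CPM for knockout (SD, n = 3 each; edgeR adjusted p = 0.598).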

How the data were processed

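The authors deposited 1 table of expected counts for 6 libraries, which are not normalised, judging by the values (65.4% lay within 0.01 of a whole number). STAR 2.6, DESeq2 and mm10 are named in the submitters' processing notes without a role, and the sources used here name no counting tool, annotation or strand setting. Counts were rounded to whole numbers. Of 17008 genes matched to RefSeq, the deposited stop lay 1 base past RefSeq's gene end for 4672 and equalled it for 411. The rest had neither form, and 1 was subtracted from every stop. In R 4.3.3, genes were filtered with filterByExpr, scaled with TMM factors and tested with edgeR 4.0.16 (glmQLFit and glmQLFTest, robust=TRUE). Alternatives used DESeq2 1.42.0 and limma 3.58.1. Standard errors were derived from the F statistic, and 95% intervals use the fit's t distribution. CPM values are TMM-scaled, and log2 CPM used a prior count of 2. The scripts were tested on simulated data. Each group had 3 libraries, of 17123748 to 28610649 counts. Named genes are those within 0.5 Mb of Mir21a, those within 0.25 Mb of Scpep1, up to 8 per direction with mean CPM of at least 1 and groups apart, the 3 with the highest CPM, and the 2 with the smallest p per role list, 36 in all, of which 1 is not reported here; Mmd, Cuedc1, Cox11, Pigw, Rasl10b, Lig3, Tmem132e, Asic2, Tom1l1, Utp18, Tspoap1 and C030037D09Rik were named outside the rule. The members and lists were chosen with earlier results of these data known. Single genes of the marker and autophagosome lists whose values are given were picked after those values were seen. RefSeq's promoter table matched 69 of 82 members by symbol.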

Additional observations from a re-analysis of the deposited data

How the results depend on the processing

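In edgeR the genes called over all genes were 0 and the members called were 0. DESeq2 called 66 genes and 1 member, Scpep1; the cause of the difference was not tested. Leaving out 1 library gave 0 to 9 genes and 0 to 1 members called, with 9 genes and 1 member (Scpep1) without wild-type replicate 1 and 1 gene without wild-type replicate 2. Members at an unadjusted p under 0.05 numbered 6 to 11 over all alternatives, against 8, while the share of all genes at that p ran from 3.77% to 8.19%; it was 7.44% where there were 11. Without knockout replicate 1 or 2 there were 6, all of them among the 8, with 3.93% and 4.23% of all genes. Scpep1, Trim25, Stxbp4, Usp32 and Mrps23 were at that p under every alternative, and Rffl, Brip1 and Akap1 were not. Rffl was also not at that p with replicate number as a block. Library totals in place of TMM factors moved the median log2 fold change of all genes from −0.00078 to 0.04 and gave 42 members higher and 27 lower. Signs turned when 1 library was left out for Cltc (−0.17 to 0.38), Gdpd1 (−0.11 to 0.14), Ints2 (−0.031 to 0.25), Rnft1 (−0.015 to 0.20), Smg8 (−0.10 to 0.23), Tubd1 (−0.092 to 0.32), Dgke (−0.46 to 0.059), Msi2 (−0.41 to 0.11) and Mtmr4 (−0.0075 to 0.32). No other gene of the 36 named by the rule reversed under any alternative run. Genes named outside the rule were not followed in this way. With 1 library left out, 23 of the 36 named genes moved by over 1.5 times or turned sign. The counts of the nearest genes without a library and the sum without Cltc were chosen after seeing the data.

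The labels do not say that same-numbered libraries of the genotypes share an animal or batch, so the numbers were not taken as pairs. Their deviations from the group means had correlations across genes of −0.27, −0.18 and −0.08, which do not settle whether they were paired. With the replicate block 0 genes and 0 members were called, and 7 members and 572 genes had an unadjusted p under 0.05, against 8 and 955; the block changed no named call. Without any 1 knockout library, 620 to 652 genes were at that p. The 3 libraries per group and low counts limit what could be detected for members under about 1 CPM.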
